A study of Mus musculus with 2 samples.

Results

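The 6 genes described here, Sox10, Erbb3, S100b, Foxd3, Fabp7 and Cdh19, are known for their expression in Schwann cells and sustentacular cells, and were chosen by name, 6 of 21802 protein-coding genes. Their chromatin was read from DNase-seq of whole adrenal glands of 2 male B6CASTF1/J mice, F1 hybrids aged 25 days, with 1 library per animal (replicate 1 and replicate 2). The labels number the animals separately but give both the same donor code, and there is no treatment, second tissue or control group, so no test between conditions could be made and each value is given per library. DNase I cuts DNA where chromatin is open, and a stretch cut often is called a DNase I hypersensitive site (DHS). For each gene the DHSs touching the gene body or the 50 kb on either side were taken, and their height is the signal value deposited for the peak. In tissue of mixed cell types, a low height from few cells with an open site and one from weak cutting in many cells cannot be told apart.

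The adrenal gland has a steroid-making cortex around a medulla of chromaffin cells, and glial cells derived from the neural crest accompany the nerves and chromaffin cells of the medulla. Schwann cells wrap axons, and sustentacular cells envelop groups of chromaffin cells. In this lineage SOX10 is a transcription factor needed to specify and maintain glia, FOXD3 acts earlier in neural crest and glial precursors, and ERBB3 is the receptor through which axonal neuregulin acts on Schwann cells. S100B is a calcium-binding protein, FABP7 a fatty acid-binding protein of immature glia, and CDH19 a cadherin of Schwann cell precursors.

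The longer deposited list held 130945 DHSs in replicate 1 and 157786 in replicate 2, with median heights of 1.01 and 0.720. Within a library each height was a multiple of one smallest step. Read as CPM, the steps imply totals of 120.0 M and 112.6 M counts (M for mega), which is an inference from the values. Markers of the labelled tissue were open: all 5 cortical markers (Star, Cyp11a1, Nr5a1, Mc2r and Cyp11b1) and 3 of 5 chromaffin markers (Th, Dbh and Chga) had a promoter DHS in both libraries. Over all protein-coding genes the share with a promoter DHS in both was 65.8%. Across the genome heights were lower in replicate 2: over 82852 overlapping pairs the log2 ratio, replicate 1 over replicate 2, had a median of 0.34.

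Promoters of the 6 genes were open in part. A promoter is called open here when a DHS touches the 1 kb on either side of a protein-coding start. Fabp7 and Erbb3 had clear promoter DHSs in both libraries, S100b a weak one in both, Foxd3 in replicate 1 alone, and Sox10 and Cdh19 in neither. By library, 4 of 6 were open in replicate 1 and 3 of 6 in replicate 2, against 69.4% and 69.1% of all protein-coding genes. In both libraries 3 of 6 were open, against 65.8% of all, and in neither 2 of 6, against 27.2%. With 6 genes these shares carry little precision, and nothing particular to the list is read from them. All 6 genes had in their window at least 1 DHS away from promoters that overlapped such a DHS of the other library, as did 83.8% of all genes and 57.7% of the 5940 genes whose promoter was closed in both libraries. That count rests in part on weak sites: it was 3 of 6 with the shorter deposited peak list, 4 among the 50000 strongest DHSs of each library, 4 with 25 kb on either side and 5 when the overlap had to cover 50% of both DHSs.

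**Figure D1:**
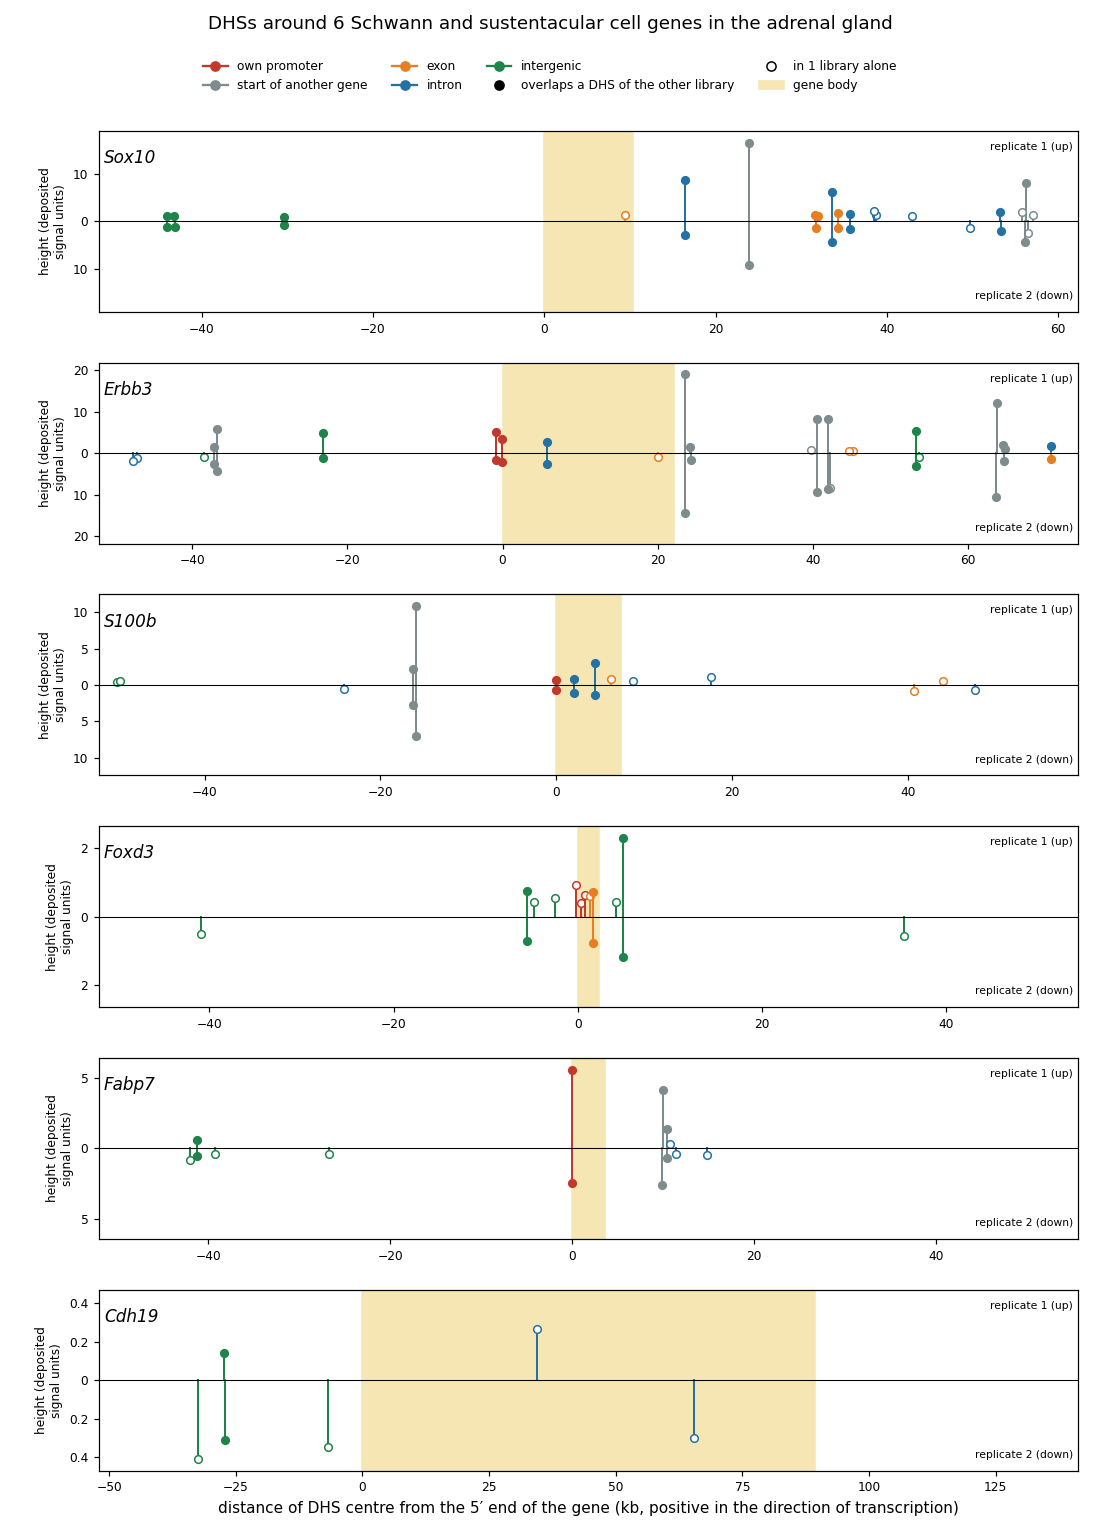
DHSs around the 6 genes, with the distance of the DHS centre from the 5′ end of the gene in kb on the x axis and peak height in deposited signal units on the y axis, upward for replicate 1 and downward for replicate 2 (each panel has its own scale). Filled symbols overlap a DHS of the other library. The tallest sites around Sox10 and Erbb3 (16.5 and 18.9 in replicate 1) lay at starts of other genes, and Cdh19 had no DHS above 0.409.

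Sox10 had no open promoter but a crowded surrounding. Its window held 16.3 DHSs per 100 kb in replicate 1 and 11.8 in replicate 2. Medians over the windows of all protein-coding genes were 8.16 and 8.39, and the Erbb3 window held 14.7 and 16.4. Sox10 lies on the minus strand of chromosome 15 (79154908 to 79165240, mm10). None of its 3 protein-coding starts had a DHS within 1 kb in either library. In replicate 1 no base of that promoter region reached the deposited false discovery rate (FDR) limit of 0.05, and in replicate 2 a stretch of 16 bases did, with a lowest FDR of 0.0326. The nearest DHS centre lay 8704 bp from a start in replicate 1, in the 3′ untranslated exon of Sox10 itself, with a height of 1.25. This DHS had no partner in replicate 2, although the lowest FDR of replicate 2 inside it was 0.0465. In replicate 2 the nearest DHS centre lay 15713 bp away, beyond the 3′ end of the gene. That exonic DHS was the only one touching the gene body, and no DHS was detected in an intron of Sox10 in either library at this depth.

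Around it, 18 DHSs in replicate 1 and 13 in replicate 2 fell into 19 sites once overlapping DHSs were joined, and 11 of these sites were present in both libraries. Of the 19 sites, 5 lay at starts of neighbouring genes (Micall1, and the divergent pair 1700088E04Rik and Polr2f). DHSs at these starts carried 46.4% and 46.3% of the summed height. The remaining 14 sites lay away from promoters, and 9 of them were shared. Polr2f encodes a subunit shared by RNA polymerases, and its start 23939 bp downstream of the Sox10 5′ end held the tallest DHS of the window, at 16.5 in replicate 1 and 9.16 in replicate 2.

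The shared DHS away from promoters with the highest mean height of both libraries lay in an intron of Polr2f, 16479 bp downstream of the Sox10 5′ end and past its 3′ end (chr15:79148661-79148860). Its height was 8.64 in replicate 1 and 2.80 in replicate 2, a log2 ratio of 1.63, and it lay at percentile 92.7 of all DHS heights in replicate 1. The lowest FDR inside it was 8.43e-28 in replicate 1 and 1.19e-06 in replicate 2. Replicate 1 had 4 footprints in it, short stretches protected from cutting within an open site, and replicate 2 had 1, which lay within a footprint of replicate 1. For each gene the sequence of the shared DHS away from promoters with the highest mean height is shown, and at Sox10 it is this one. By that mean it also ranked first among such DHSs around the 2 genes with a closed promoter. The sequence is given on the plus strand of GRCm38.p6 (the build of mm10). As in all sequences printed, bases in a footprint of either library are in capitals.
Sox10 DHS in Polr2f: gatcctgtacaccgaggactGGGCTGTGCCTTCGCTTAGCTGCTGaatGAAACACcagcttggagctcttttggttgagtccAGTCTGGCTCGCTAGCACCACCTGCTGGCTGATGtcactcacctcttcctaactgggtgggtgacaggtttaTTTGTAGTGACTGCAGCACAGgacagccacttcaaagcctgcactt

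Farther downstream a DHS in an intron of 1700088E04Rik, which is overlapped by Micall1, was the next highest of these in replicate 1 (chr15:79131581-79131760, 6.19) and the strongest away from promoters in replicate 2 (4.37). It held 4 and 5 footprints, and 3 of those in replicate 1 overlapped one of replicate 2. On the upstream side, where GENCODE places no other protein-coding gene within the window, 3 intergenic sites were shared by both libraries. They were centred at -30416, -43163 and -44037 bp from the 5′ end, negative meaning upstream. The site at -30416 bp had heights of 0.942 in replicate 1 and 0.853 in replicate 2, and Sox10 is the gene whose start is nearest to it. The other pair, nearest to the start of Pick1, had 1.07 and 1.12 in replicate 1 and 1.20 and 1.27 in replicate 2. These 3 sites lay at percentiles 47.4, 52.3 and 53.9 of the heights in replicate 1 and 57.9, 70.2 and 72.0 in replicate 2, with log2 ratios of 0.14, -0.17 and -0.19, beside 1.63 for the Polr2f site.

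Foxd3, the other transcription factor of the list, is a gene with a single exon on chromosome 4 (99656299 to 99658622, plus strand). In replicate 1 its promoter region held 3 DHSs, with heights of 0.933, 0.400 and 0.625, and 804 of its bases were at an FDR of 0.05 or less. In replicate 2 it held no DHS and no such base. The start of Gm12688, a long intergenic noncoding RNA gene, lies within 1 kb of the highest of the 3. That DHS, centred 218 bp upstream of the Foxd3 start, lay at percentile 47.1 of replicate 1. The promoter was therefore open in 1 animal alone by these lists, at a height below the library's median. The 250 bases before the RefSeq start (chr4:99656049-99656298) hold 21 CG dinucleotides, and their only footprint, of 13 bases, came from replicate 1.
Foxd3 promoter: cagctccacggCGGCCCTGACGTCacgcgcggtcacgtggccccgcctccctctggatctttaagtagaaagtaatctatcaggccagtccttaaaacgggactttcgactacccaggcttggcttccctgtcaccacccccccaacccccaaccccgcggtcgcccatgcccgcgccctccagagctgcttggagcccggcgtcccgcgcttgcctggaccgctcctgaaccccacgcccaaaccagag

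Inside the gene, a DHS over the coding exon centred 1652 bp downstream of the start was present in both libraries, with heights of 0.717 in replicate 1 and 0.782 in replicate 2. The start of Gm23366, a microRNA gene, lies within 1 kb of this DHS. Outside the gene, a site centred 5468 bp upstream of the start was also shared (0.750 and 0.702). The strongest DHS of the window lay 4912 bp downstream of the start, beyond the end of the gene (chr4:99661121-99661300), with heights of 2.30 in replicate 1 and 1.17 in replicate 2, a log2 ratio of 0.97. In replicate 1 it exceeded every promoter DHS of Foxd3. It held 3 footprints in each library, and 2 of those of replicate 1 overlapped one of replicate 2. In all, 3 of 12 sites of the window were shared, all 3 of them away from promoters, while 7 were in replicate 1 alone and 2 in replicate 2 alone.
Foxd3 downstream DHS: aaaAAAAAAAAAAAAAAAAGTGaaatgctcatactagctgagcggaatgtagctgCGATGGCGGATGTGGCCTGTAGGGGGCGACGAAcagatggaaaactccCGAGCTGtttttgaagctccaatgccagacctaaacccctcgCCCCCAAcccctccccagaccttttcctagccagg

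The receptor gene Erbb3 was open at its promoter and in an intron in both animals. It lies on the minus strand of chromosome 10 (128567523 to 128589652). A DHS over the start, centred 89 bp upstream, had heights of 3.50 in replicate 1 and 2.01 in replicate 2, and a second one centred 909 bp upstream had 5.00 and 1.71. The upstream DHS was the higher one in replicate 1 and the lower one in replicate 2. An intronic DHS centred 5761 bp downstream of the start (chr10:128583801-128583980) had nearly equal heights of 2.77 in replicate 1 and 2.60 in replicate 2. Its log2 ratio of 0.09 is small beside the ratios of 0.80 and 1.55 at the promoter. Its 3 footprints in replicate 1 included 2 that overlapped footprints of replicate 2. The start of Mir6917, a microRNA gene, lies within 1 kb of it. A coding-exon DHS near the 3′ end, at 0.933, was in replicate 2 alone.
Erbb3 intronic DHS: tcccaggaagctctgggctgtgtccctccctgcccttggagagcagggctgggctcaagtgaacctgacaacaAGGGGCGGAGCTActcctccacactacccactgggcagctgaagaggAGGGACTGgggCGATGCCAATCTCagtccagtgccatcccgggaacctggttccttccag

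A pair of intergenic sites around Erbb3 were shared. One was centred 53211 bp downstream of the 5′ end, nearest to the start of Esyt1 (chr10:128536361-128536520), with heights of 5.27 in replicate 1 and 3.08 in replicate 2. The other was centred at -23189 bp, with 4.92 and 1.25, the largest log2 ratio of any shared site around the 6 genes (1.98). The window of Erbb3 is dense with broadly expressed genes: 10 of its 23 sites lay at starts of Esyt1, Zc3h10, Rpl41, Pa2g4 and Rps26, which include ribosomal protein genes. DHSs there carried 71.4% of the summed height in replicate 1 and 77.7% in replicate 2. The tallest, at Pa2g4, had 18.9 and 14.3. Of the 11 sites away from promoters 4 were shared, and 5 of the rest were in replicate 2 alone.
Erbb3 downstream DHS: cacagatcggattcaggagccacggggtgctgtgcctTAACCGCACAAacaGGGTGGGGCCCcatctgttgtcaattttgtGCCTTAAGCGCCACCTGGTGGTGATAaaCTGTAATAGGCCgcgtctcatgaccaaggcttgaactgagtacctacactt

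S100b, on chromosome 10 (76253853 to 76261159, plus strand), was more open inside the gene than at its start. The promoter DHS had heights of 0.667 in replicate 1 and 0.675 in replicate 2, at percentile 32.9 of replicate 1, and its lowest FDR was 0.0203 and 0.0320. It was in neither library's shorter deposited list. The first of the intronic DHSs, centred 2008 bp downstream of the start, had 0.875 in replicate 1 and 1.07 in replicate 2. The second, centred 4358 bp downstream (chr10:76258121-76258300), had 3.04 and 1.34. In both animals, then, each intronic site was higher than the promoter site. A DHS of 0.808 over a coding exon was in replicate 1 alone.
S100b promoter: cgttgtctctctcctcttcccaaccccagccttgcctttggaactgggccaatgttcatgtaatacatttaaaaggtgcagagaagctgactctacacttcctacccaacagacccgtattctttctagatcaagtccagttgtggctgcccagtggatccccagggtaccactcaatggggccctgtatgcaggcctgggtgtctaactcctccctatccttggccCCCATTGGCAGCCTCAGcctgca
S100b intronic DHS: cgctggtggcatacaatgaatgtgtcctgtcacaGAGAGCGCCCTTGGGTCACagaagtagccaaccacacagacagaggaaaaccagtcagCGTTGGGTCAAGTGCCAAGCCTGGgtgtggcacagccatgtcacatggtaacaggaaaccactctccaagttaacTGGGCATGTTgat

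The S100b sequences set the weak promoter beside the stronger intronic site. The 250 bases before the RefSeq start (chr10:76253586-76253835) held 1 footprint, from replicate 1, and the intronic site held 3 footprints in replicate 1 and 2 in replicate 2. Elsewhere in the window the start of Prmt2, an arginine methyltransferase gene, held 2 shared sites (10.8 and 7.02 for the taller). DHSs there made up 60.4% and 65.2% of the window's summed height. The 5 sites within Dip2a, the neighbouring gene downstream, the 2 intergenic sites beyond Prmt2 and the site in a Prmt2 intron were each in 1 library alone.

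Fabp7 showed the reverse arrangement, with the strongest promoter of the 6 and only 1 shared DHS away from promoters. Its window held 4.83 DHSs per 100 kb in replicate 1 and 8.69 in replicate 2. The medians over the windows of all protein-coding genes were 8.16 and 8.39. Fabp7 lies on chromosome 10 (57784881 to 57788450, plus strand). Its promoter DHS (57784741 to 57784920) had heights of 5.59 in replicate 1 and 2.49 in replicate 2, a log2 ratio of 1.17, at percentile 88.1 in replicate 1. The lowest FDR was 2.79e-39 and 6.92e-18. All 3 footprints of replicate 1 in this site overlapped footprints of replicate 2, which had 4. Promoter sequences are shown for the 3 members with an entry in the RefSeq table, at Fabp7 chr10:57784673-57784922.
Fabp7 promoter: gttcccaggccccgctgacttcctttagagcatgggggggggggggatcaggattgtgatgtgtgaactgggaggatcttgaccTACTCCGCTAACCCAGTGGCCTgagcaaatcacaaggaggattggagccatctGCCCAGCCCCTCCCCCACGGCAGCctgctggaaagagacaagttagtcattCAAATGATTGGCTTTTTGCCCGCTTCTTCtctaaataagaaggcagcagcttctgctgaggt

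No DHS lay in an intron or exon of Fabp7 away from its start. The only shared DHS away from promoters was weak and centred 41200 bp upstream (chr10:57743601-57743760, 0.633 in replicate 1 and 0.515 in replicate 2). Shared sites at 4.13 and 2.61, and at 1.39 and 0.711, belonged to the start of Smpdl3a, a phosphodiesterase-like gene downstream. Of the other sites, 1 was in replicate 1 alone and 5 were in replicate 2 alone. The highest of them, 0.791 at 41990 bp upstream in replicate 2, was the strongest DHS away from promoters in that library.
Fabp7 upstream DHS: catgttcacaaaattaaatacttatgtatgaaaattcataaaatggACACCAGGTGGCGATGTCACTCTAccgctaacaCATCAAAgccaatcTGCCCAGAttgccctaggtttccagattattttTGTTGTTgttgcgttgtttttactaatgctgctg

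Cdh19 had few and weak DHSs. The gene spans 89.3 kb of chromosome 1 (110888326 to 110977584, minus strand), and its window of 189.3 kb holds no other protein-coding gene. It held 2 DHSs in replicate 1 and 4 in replicate 2, that is 1.06 and 2.11 per 100 kb, against medians of 8.16 and 8.39 over the windows of all protein-coding genes. The heights were 0.267 and 0.142 in replicate 1, and 0.302, 0.346, 0.311 and 0.409 in replicate 2. All were low: the strongest corresponded to 32 steps in replicate 1 and 46 in replicate 2, where the median DHS had 121 and 81. No base within 1 kb of its start was at an FDR of 0.05 or less in either library. An intronic DHS was present in each library, but 34497 bp from the 5′ end in replicate 1 and 65553 bp in replicate 2, so neither was shared. A single intergenic site at -27222 bp was shared (chr1:111004741-111004870, 0.142 and 0.311), with no footprint in either library, and the overlap of 1 DHS with the other covered less than 50% of the wider one.
Cdh19 upstream DHS: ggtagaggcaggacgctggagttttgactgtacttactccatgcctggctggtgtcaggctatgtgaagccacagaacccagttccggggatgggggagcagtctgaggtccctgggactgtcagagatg

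Counted together, the 6 windows held 64 DHSs in replicate 1 and 59 in replicate 2. Of these, 62.5% (95% Wilson interval 50.3 to 73.3) overlapped a DHS of the other library in replicate 1 and 64.4% (51.7 to 75.4) in replicate 2. The same shares over all DHSs were 62.2% and 51.8%, so in replicate 1 the members' share was that of the genome, and in replicate 2 the genome's share lay just inside the interval. Intervals cover counting error only, since DHSs of 1 animal are not independent animals. Of the 39 DHSs away from promoters in each library, 53.8% (38.6 to 68.4) and 51.3% (36.2 to 66.1) were shared, against 56.3% and 44.5% over all such DHSs, which made up 76.0% and 80.0% of the lists. The shorter deposited lists held 36 of the 64 DHSs in replicate 1 and 31 of the 59 in replicate 2, against 61.7% and 40.9% of all DHSs. The median height of the DHSs away from promoters was 1.04 and 0.933, against 0.842 and 0.613 genome-wide.

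Footprints were common in these sites. Of the 39 DHSs away from promoters in each library, 28 (71.8%, interval 56.2 to 83.5) held a footprint in replicate 1 and 33 (84.6%, 70.3 to 92.8) in replicate 2, against 77.6% and 61.6% of all DHSs away from promoters. The members' share in replicate 2 lay above the genome's share, and in replicate 1 the interval included it. Their heights were also above the genome's in both libraries, as given above, and the part of height in these shares was not tested. Joined into sites, the windows held 83 sites, of which 38 were shared and 45 were in 1 library alone. In 5 of these 45 the other library nevertheless passed the FDR limit of 0.05 somewhere in the site without a DHS overlapping it, so absence from a list is not absence of signal.

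Heights in the windows were higher in replicate 1, as in the libraries as a whole. Summed over the windows, height was 185.38 in replicate 1 and 142.35 in replicate 2, a log2 ratio of 0.38, beside 0.40 for the summed height of the whole libraries. Dividing heights by the library totals takes that same 0.40 from every log2 ratio and leaves -0.0147 for the windows. Their summed ratio was thus about that of the whole libraries. Erbb3 and Sox10 held the most of the sum, 83.97 and 59.77 in replicate 1. The SD over the 6 genes was 1.00, which is a spread between genes and not an error of the sum. By gene the log2 ratio was 0.80 for Sox10, 0.08 for Erbb3, 0.52 for S100b, 1.04 for Foxd3, 0.47 for Fabp7 and -1.74 for Cdh19. The first 5 were higher in replicate 1 and Cdh19, with its few weak DHSs, higher in replicate 2. The median of these was 0.49, against 0.41 (SD 0.72) over 20343 gene windows with a DHS in both libraries. Over the 40 overlapping pairs in the windows the median was 0.17 (SD over pairs 0.67), against 0.34 (0.69) for all pairs. With 1 animal on each side, a difference between the animals and one between libraries cannot be told apart.

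**Figure D2:**
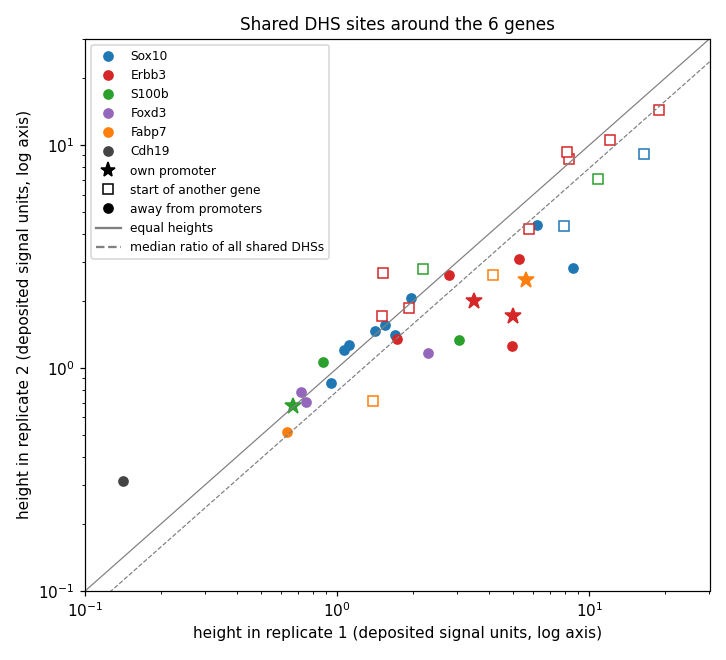
Heights of the 38 shared sites around the 6 genes in replicate 1 (x axis) and replicate 2 (y axis), in deposited signal units on log axes, with stars for the gene's own promoter, open squares for starts of other genes and circles for sites away from promoters. Solid and dashed lines mark equal heights and the median ratio of all shared DHSs (log2 0.34), and 24 of the 38 sites were higher in replicate 1.

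A further 16 genes of the Schwann cell lineage were set beside the 6, listed by name. Promoters were open in both libraries for 12 of 16, in replicate 1 alone for 2 (Pax3 and Cldn19) and in neither for 2 (Gfap and Gjc3), against 65.8% open in both over all genes. Among transcription factors, Sox9 had promoter heights of 6.30 in replicate 1 and 3.28 in replicate 2, Sox2 3.94 and 1.72, and Sox8 3.31 and 2.25. Pou3f1, a POU factor of promyelinating Schwann cells, had 8.84 and 3.81, while Egr2, a regulator of myelin genes, had 6.77 and 7.84 at an alternative start 2394 bp into the gene. Zeb2 had 5.30 and 3.42 and Tfap2a 1.18 and 1.04, the second at a start 7933 bp inside the gene.

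Genes for signalling and for myelin proteins differed among themselves. Erbb2, the partner receptor of ERBB3, had 3.77 in replicate 1 and 2.98 in replicate 2. Nrg1, which encodes the neuregulin ligand of ERBB3, had 7.20 and 3.69 at an alternative start 874578 bp from the 5′ end. The neurotrophin receptor gene Ngfr had 1.68 and 1.95, and L1cam, an adhesion molecule, 1.3 and 1.22 at an alternative start. Pmp22, a gene of peripheral myelin, had 6.22 and 4.33 at an alternative start. Gfap, a glial intermediate filament gene, had no promoter DHS, although it had 7 shared DHSs away from promoters in its window.

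**Figure D3:**
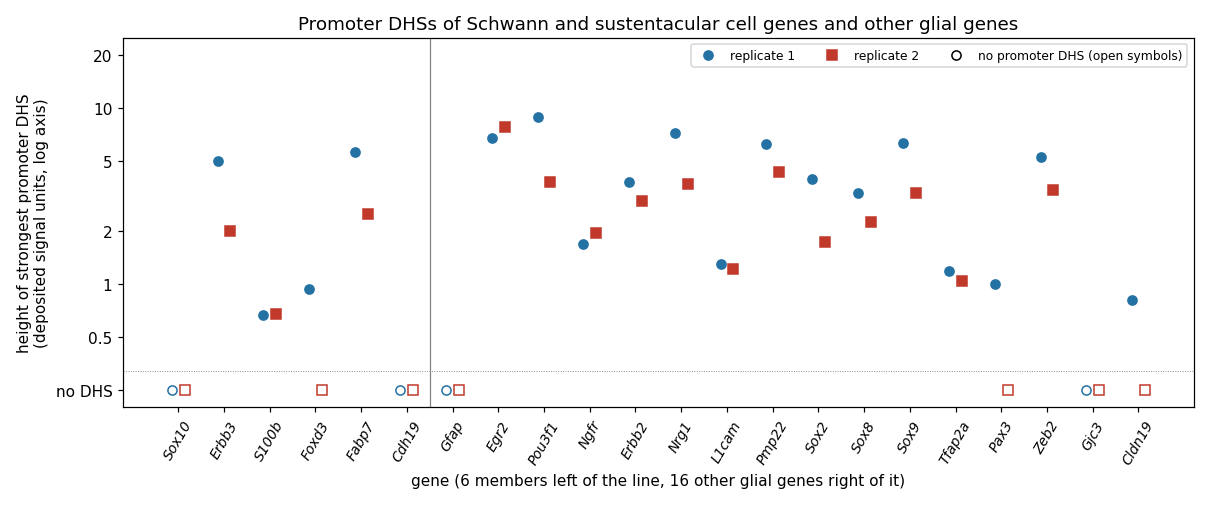
Height of the strongest promoter DHS of the 6 genes (left of the line) and 16 other glial genes (right), on a log axis in deposited signal units, with circles for replicate 1, squares for replicate 2 and open symbols for no promoter DHS. Sox10, Cdh19, Gfap and Gjc3 had none in either library.

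Markers of other cell types were read in the same way. Of 5 melanocyte markers, Tyr, Dct and Mlana had no promoter DHS in either library, Tyrp1 had 0.489 in replicate 2 alone, and the DHS at Pmel (12.2 and 9.53) lay nearer to the start of Cdk2. Of 5 oligodendrocyte markers, Olig1 was open in both (4.05 and 3.09), Olig2 in replicate 1 alone (0.858), and Mog, Mag and Mobp in neither. Among endothelial markers 3 of 4 were open in both libraries, among adipocyte markers 2 of 3, and among macrophage markers 0 of 3. Over all protein-coding genes the share open in both was 65.8%. In the shorter peak lists, 1 of the 4 endothelial promoters had a DHS in each library. Of the 3 adipocyte promoters, 2 had one in replicate 1 and 0 in replicate 2. The part of these cell types in the sites above was not tested.

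Short consensus sequences were looked for, on both strands, in the 150 bp around the centre of the 20 shared sites away from promoters, beside the share of all DHSs away from promoters that hold them in a window of that length. The NFI letters TTGGCA were in 4 sites, namely 2 around Sox10 and the intronic ones of Erbb3 (5761 bp) and S100b (4358 bp), that is 20% against 16.7% in replicate 1 and 13.6% in replicate 2. In these intronic sequences their bases lay wholly within a footprint of replicate 1, but within a footprint of replicate 2 only in S100b. Of the SOX consensus sequences, ACAAAG was in 1 site, the first intronic DHS of S100b (5% against 9.97% and 10.8%), and AACAATG was in none of the 20 (1.52% and 1.77% of all). TEAD GGAATG was in 3 sites (15% against 9.17% and 9.23%), E-box CAGCTG in 2 (10% against 15.9% and 13.3%) and AP-1 TGANTCA in 1 (5% against 13.5% and 11.2%). The 20 sites were all shared, while of all DHSs away from promoters 56.3% in replicate 1 and 44.5% in replicate 2 were shared. The part of sharing in these differences was not tested. With 20 sites these shares carry little precision, and a match is a description of letters and not a bound factor.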

How the data were processed

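DNase-seq libraries of adrenal gland tissue from 2 animals were analysed, 1 per animal. Per the labels and the file headers, the authors made all files in mm10 from each library's own filtered alignments, and replicates were not pooled. The aligner, the callers of peaks and footprints, and their filters: not given in the sources used here. Peak height is a signal value deposited by the authors. In both libraries 100% of heights were whole multiples of 1 step (within 0.01 of a step), 0.00833 and 0.00888. The deposited FDR (q-value) lists hold stretches at 0.05 or less, and all footprints carry the deposited threshold 0.01, with no score. Signal tracks and alignments were not used here.

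The longer peak list was used throughout. Genes and starts came from GENCODE M21 (GRCm38.p6), protein-coding, on chromosomes 1 to 19, X and Y, with repeated symbols dropped. A promoter was the 1 kb on either side of a protein-coding start, "away from promoters" meant touching no such region, shared meant an overlap of 1 bp, and a shared site away from promoters counted for a gene only when the partner DHS was also away from promoters. Class was read at the DHS centre. Motifs and printed sequences came from the GRCm38.p6 genome, and 3 promoters from the RefSeq table, identical to the genome. Python 3.11.15, numpy 2.4.6, scipy 1.17.1 and pysam 0.24.0 were used, and the counting procedure was tested on simulated data. Members and lists were chosen with earlier results of these data known. All members and the genes of the glial list were named, apart from 2 genes of that list that are not reported here and not counted, with neighbours where a DHS lay at or nearest to their start. The Erbb3 intronic sequence and the 1 motif with a free base were chosen after values were seen. Alternatives were the shorter list, the 50000 strongest DHSs, other windows, overlaps and scaling, and each library alone. Replicate values measure the spread between these samples, and shares carry 95% intervals.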

Additional observations from a re-analysis of the deposited data

How the results depend on the processing

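With the shorter peak list, 3 of the 6 genes (Sox10, Erbb3 and S100b) had a shared DHS away from promoters in place of 6 (4 among the 50000 strongest or with 25 kb, 5 with an overlap of 50%), and the promoter of S100b was closed in both libraries. Cdh19 then had no DHS at all and Foxd3 none in replicate 2. The mean number of DHSs in the windows was 61.5, and it was 34.5 with the shorter list, 32.5 among the 50000 strongest DHSs, 36 with 25 kb and 111 with 100 kb on either side. The mean share of DHSs that were shared was 63.5%, and it was 69.7% with the shorter list, 83.6% among the 50000 strongest, 69.2% with 25 kb, 57.0% when the overlap had to cover 50% of both DHSs and 55.4% for centres within 75 bp. The mean share with a footprint was 78.2%, and it was 91.7% with the shorter list and 90.3% among the strongest. The summed height ratio of replicate 1 over replicate 2 (log2 0.38) was -0.0147 when heights were divided by the library's total, and the median ratio of shared DHSs (0.17) was -0.22. This scaling takes the same constant from every DHS, so these signs say nothing about the 6 genes. Open promoters numbered 3 of 6 in the report's setting, 2 with the shorter list or the 50000 strongest DHSs, 3 with a promoter of 500 bp and 4 with one of 2 kb on either side, where a DHS in the Foxd3 coding exon was added. Leaving out each library in turn gave 3 to 4 open promoters, 59 to 64 DHSs, shares of 62.5% to 64.4% shared and 71.8% to 84.6% with a footprint. DHSs away from promoters alone gave a summed log2 ratio of 0.47 and shared DHSs alone 0.49, both added after seeing the data. No paired analysis was possible because the series holds 1 group. Depth limits the weakest sites, such as the 17 steps of the shared Cdh19 DHS in replicate 1, and absence of a DHS means that none was detectable at this depth.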

Other observations

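Among the 5940 protein-coding genes with a promoter closed in both libraries, Sox10 had many shared DHSs away from promoters in its window: 10 DHSs of replicate 1, a number reached by 234 of these genes (3.94%), whose median was 1. Cdh19 had 1, reached by 3429 of them (57.7%). The closed genes with the most were Pebp4 (30), Dnah2 (29), Sfi1 (24), Gm48551 (22) and Btn1a1 (22), counted in the same way in windows of 107.1 to 319.5 kb. Windows of gene-dense regions hold DHSs of other genes, so this number does not assign them to the gene.

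Of the 6 sequences printed as the shared DHS away from promoters with the highest mean height at each gene, 3 (those of Erbb3, Foxd3 and Fabp7) hold the letters AGGNGGC. These letters are the core of the consensus of CTCF, an insulator-binding protein active in most cell types. All 7 bases lay within a footprint of replicate 1 in each, but within a footprint of replicate 2 only at Erbb3. This search, with a free base that also takes in the AGGGGGC form, was added after the sequences had been seen. Over the 20 shared sites away from promoters it was matched by 5 (25%), against 20.2% of all DHSs away from promoters in replicate 1 and 15.3% in replicate 2. The AGGGGGC form alone was matched by 2 of 20 (10%, against 6.53% and 4.61%). Here too, all DHSs away from promoters include those in 1 library alone.

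The first intronic DHS of S100b (76255781 to 76255940 on chromosome 10) was the 1 site of the 20 that held CAAGGTCA, the NR5A consensus bound by the cortical factor SF-1, which 3.17% of all DHSs away from promoters held in replicate 1 and 2.67% in replicate 2. It was also the only one with the SOX letters ACAAAG. None of the 20 sites matched the TFAP2 letters GCCNNNGGC, held by 9.12% and 6.82% of all DHSs away from promoters in replicates 1 and 2. The same was true of the EGR letters GCGGGGGCG (0.252% and 0.172%), the ETS letters CCGGAAG (1.5% and 1.37%) and the letters AGATAA recognised by zinc-finger factors of the GATA family (5.10% and 5.98%).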
